A study of Homo sapiens with 6 samples.

Results

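The 10 genes EGR1, IER2, IER3, IER5, DUSP1, BTG2, NR4A1, ZFP36, SIK1 and CITED2 were chosen by name as immediate-early and CREB-responsive genes, and all 10 were found among the 15651 genes of the table. Their RNA was measured in MDA-MB-231 cells, an established human triple-negative breast cancer (TNBC) line grown in serum, in 3 libraries from cells given the vehicle DMSO and 3 from cells given BRL-50481, an inhibitor of the phosphodiesterase PDE7A. The treatment text of the labels and the paper's figure legends give 50 μM for 72 h, the treatment tag gives 5 μM and 48 h, and no time is given for DMSO. The paper describes the 3 libraries of a group as biological replicates of this 1 line. Values are normalized counts, that is, reads per gene divided by a scaling factor for each library, and the libraries held 30750573 to 33446984 reads on genes. DMSO replicate 1 lay farthest from the other libraries of its group. The line's markers VIM, CD44, KRT8 and KRT18 were all abundant, ESR1 and the leukocyte marker PTPRC were not listed, and the other markers of the list were measured at lower levels, PGR at no more than 7.75.

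Immediate-early genes are the genes a cell transcribes first after a growth factor, stress or second messenger, with no need for newly made protein. ERK signalling reaches many of them through the factor SRF, which binds CArG boxes, and its ELK partners. Cyclic AMP, which phosphodiesterases break down, reaches others through protein kinase A and the factor CREB, which binds the cAMP response element (CRE). Their transcripts are usually short-lived, and several of the proteins they encode switch the same pathways off again. In serum-grown cancer cells many are made all the time.

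Letters of the CRE and the CArG box occur before the RefSeq starts of some of these genes. The following stretches are shown because they hold such letters. Each is read 5′ to 3′ on the gene's strand from RefSeq on GRCh38.p14, with matches in capitals, TGACG or its reverse complement CGTCA for the CRE core, TGACGTCA for the full CRE, CArG boxes in EGR1 and TATAAA at the end of DUSP1. The stretches are EGR1 at chr5:138465329-138465429 (+), DUSP1 at chr5:172771215-172771375 (-), SIK1 at chr21:43427231-43427281 (-), BTG2 at chr1:203305299-203305349 (+) and IER2 at chr19:13150261-13150291 (+).
EGR1: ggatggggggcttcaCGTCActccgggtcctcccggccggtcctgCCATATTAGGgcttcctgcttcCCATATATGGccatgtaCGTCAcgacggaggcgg
DUSP1: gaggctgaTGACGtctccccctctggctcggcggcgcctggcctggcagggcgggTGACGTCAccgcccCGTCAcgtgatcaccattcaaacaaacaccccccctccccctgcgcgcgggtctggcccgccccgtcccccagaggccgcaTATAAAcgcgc
SIK1: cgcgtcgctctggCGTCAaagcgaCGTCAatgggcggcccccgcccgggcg
BTG2: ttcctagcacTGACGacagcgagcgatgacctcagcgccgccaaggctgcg
IER2: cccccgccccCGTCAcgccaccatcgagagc

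Among the 9 genes with a promoter entry (IER3 is the exception), windows of 250 bases before to 50 after the start held the full CRE TGACGTCA only in DUSP1, on both strands at positions -125 to -118. The same letters stood in 1.85% of 35116 RefSeq windows and in 3.56% of the 11183 genes of the table that had a window. The CRE core TGACG, which the full CRE also contains, was present in 5 of the 9 genes (EGR1, IER2, DUSP1, BTG2 and SIK1) and in 38.9% of the genes of the table. CArG boxes were present only in EGR1, at -105 to -96 and -83 to -74, against 1.55% of the genes of the table. The AP-1 site TGANTCA was found in none of the 9 and in 7.65% of the genes, the EGR site GCGTGGG in ZFP36 and in 12.03%, the E2F core GCGGGAA in 1 of the 2 windows of NR4A1 and in 12.2%, and the TATA box TATAAA in DUSP1 and in 8.84%. These are matches of letters on either strand and not measured binding. The CRE core stood before EGR1, which rose, before IER2, which was not called, and before DUSP1, BTG2 and SIK1, which fell.

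**Figure D1:**
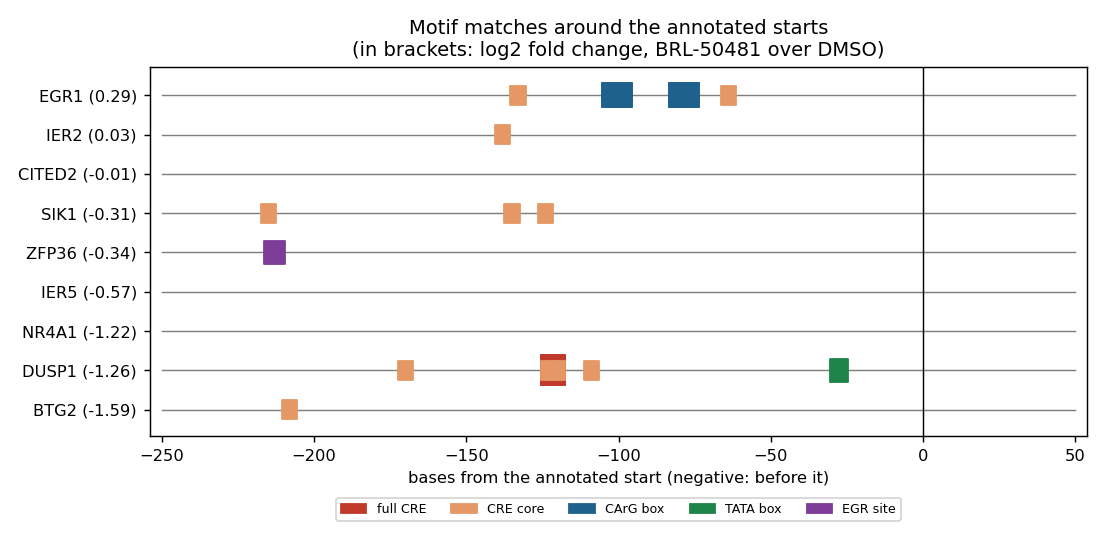
Matches of 5 motifs in windows of 250 bases before to 50 after the annotated start of 9 genes (the first window where a gene has several), with bases from the start on the x axis and the log2 fold change in brackets. The 2 CArG boxes lie in EGR1, the full CRE in DUSP1, and CRE cores in genes that rose, fell or were not called.

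A further element common in short-lived transcripts is the AU-rich element of the 3′ untranslated region, where ZFP36 and its relatives bind. The nonamer TTATTTATT occurred in 3 of the 10 genes and in 9.51% of the 13481 protein-coding genes tested, with 3 copies in IER5, 2 in DUSP1 and 1 in ZFP36 itself. The sites are given from hg38 with the nonamer in capitals, on the gene's strand: IER5 at chr1:181092443-181092471 (+), DUSP1 at chr5:172768643-172768671 and at chr5:172768375-172768403 (-), and ZFP36 at chr19:39409196-39409224 (+). The IER5 stretch holds the first of 3 overlapping copies.
IER5: gtgtcttcctTTATTTATTtatttattta
DUSP1, first site: gggctggtccTTATTTATTtaacttcacc
DUSP1, second site: agaatataccTTATTTATTtttgtgtagg
ZFP36: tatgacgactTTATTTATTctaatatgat

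The shorter pentamer ATTTA was present in the 3′ untranslated region of 9 of the 10 genes, from 1 copy in EGR1 to 10 in IER5, and absent from IER2. It is frequent in general, at 72.9% of protein-coding genes tested. The genes were also compact. The median length of the annotated transcript was 2433.5 bases against 3353, and 7 of 10 had no more than 2 exons against 6.82% of the protein-coding genes tested. The exceptions were DUSP1 with 4 exons, NR4A1 with 7 and SIK1 with 14.

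The comparison asked which of these genes changed in the cells treated with BRL-50481. BTG2, DUSP1 and NR4A1 fell most, to 32.8%, 41.6% and 42.8% of their DMSO means. IER5, ZFP36 and SIK1 fell less, EGR1 rose to 123% of its DMSO mean, and IER2, IER3 and CITED2 did not pass the test. All 10 passed the filter on low values. Called were 7 of 10, where 58.7% of the 15246 genes tested were called in either direction, so that the share called is near the background. By direction, 6 of 10 were called lower against 29.8% of all genes, and 1 of 10 was called higher against 28.9%. A fall of more than 1 on the log2 scale was seen in 3 of 10, against 2.98% of all genes. The groups were fully separate with BRL-50481 lower in 5 of 10, against 32.3% of all genes, and with BRL-50481 higher in 1 of 10, against 31.9%. The median log2 fold change was -0.32 over the 10 genes and 0.015 over all genes. These shares are descriptions of a list chosen by name, with earlier results of these data known. No test was run over the list.

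**Figure D2:**
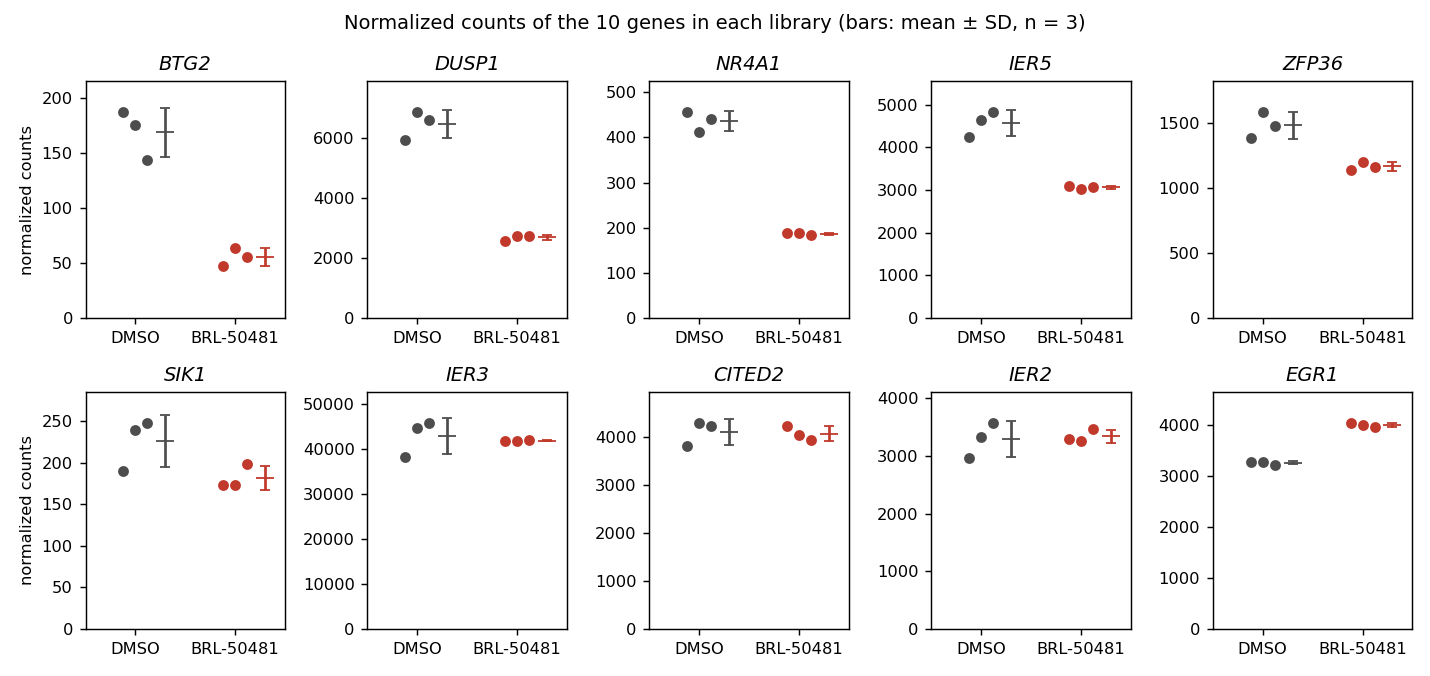
Normalized counts (y axis, from 0) of the 10 genes in the 3 DMSO and 3 BRL-50481 libraries, 1 panel per gene, with points for libraries and bars for the mean ± SD, ordered from the largest fall to the rise of EGR1. The groups are apart in BTG2, DUSP1, NR4A1, IER5, ZFP36 and EGR1 and overlap in SIK1, IER3, CITED2 and IER2.

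EGR1 (ENSG00000120738.8, chr5:138465479-138469303, + strand) encodes a zinc-finger transcription factor that ERK induces through SRF and that turns on many later genes. It was measured at 3283, 3285 and 3227 normalized counts in DMSO and at 4048, 3999 and 3965 in BRL-50481. The groups were well apart, and replicates differed little, with a coefficient of variation of 1.01% in DMSO and 1.04% in BRL-50481. Its mean (± SD, n = 3) rose from 3265 ± 33.0 to 4004 ± 41.6, or by 0.29 on the log2 scale (standard error 0.047, limma adjusted p = 0.000124). It stayed between 0.29 and 0.30 when any 1 library was left out. EGR1 was thus the only called member with a rise, and 55.0% of the genes tested had a log2 fold change of at least its size.

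The largest falls were those of BTG2, DUSP1 and NR4A1. BTG2 (ENSG00000159388.6, chr1:203305491-203309602, + strand) encodes an antiproliferative protein that recruits the deadenylase complex and is also a p53 target. The DMSO libraries held 188, 175 and 144 normalized counts of BTG2 and the BRL-50481 libraries 47.3, 63.5 and 55.2. The lowest DMSO library lay well above the highest BRL-50481 library. The log2 fold change was -1.59 (standard error 0.16, limma adjusted p = 2.7e-06), and it ranged from -1.70 to -1.49 with 1 library left out.

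DUSP1 (ENSG00000120129.6, chr5:172768096-172771195, - strand) encodes a nuclear phosphatase that removes phosphate from the MAP kinases p38, JNK and ERK, and it carries the full CRE shown earlier. It was measured at 5943, 6859 and 6580 normalized counts in DMSO and at 2576, 2747 and 2737 in BRL-50481. Each BRL-50481 library was far below each DMSO library. Its mean (± SD, n = 3) fell from 6461 ± 469 to 2687 ± 95.9, a change of -1.26 on the log2 scale (standard error 0.059, limma adjusted p = 3.85e-09). In normalized counts this was the largest of the 3 falls.

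NR4A1 (ENSG00000123358.20, chr12:52022832-52059507, + strand) encodes the orphan nuclear receptor NUR77, a classical target of CREB. Its normalized counts were 456, 412 and 440 in DMSO and 188, 188 and 183 in BRL-50481. The BRL-50481 libraries were almost equal, and the groups did not overlap. The log2 fold change was -1.22 (standard error 0.091, limma adjusted p = 1.89e-07).

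Smaller falls were measured for IER5, ZFP36 and SIK1. IER5 (ENSG00000162783.11, chr1:181088700-181092900, + strand), an intronless gene whose protein binds the phosphatase PP2A and promotes HSF1 activity, was measured at 4233, 4632 and 4827 normalized counts in DMSO and at 3096, 3032 and 3078 in BRL-50481. The groups did not overlap. The log2 fold change was -0.57 (standard error 0.056, limma adjusted p = 1.88e-06), which is 67.2% of the DMSO mean.

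ZFP36 (ENSG00000128016.7, chr19:39406847-39409412, + strand) encodes tristetraprolin, which binds AU-rich elements and brings about decay of the transcript, its own included. It was measured at 1381, 1582 and 1472 normalized counts in DMSO and at 1134, 1198 and 1163 in BRL-50481. All BRL-50481 libraries lay below the lowest DMSO library. The log2 fold change was -0.34 (standard error 0.065, limma adjusted p = 0.000554).

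SIK1 (ENSG00000142178.9, chr21:43414483-43427131, - strand) encodes a salt-inducible kinase, a CREB target that keeps the CREB coactivators CRTC out of the nucleus. Its normalized counts were 191, 239 and 248 in DMSO and 173, 173 and 199 in BRL-50481. DMSO replicate 1 lay below BRL-50481 replicate 3, so the groups overlapped. The log2 fold change of -0.31 (standard error 0.13) only just passed, at a limma adjusted p of 0.0499. The call was lost without DMSO replicate 2 (-0.26, adjusted p = 0.127), DMSO replicate 3 (-0.23, 0.178), BRL-50481 replicate 1 (-0.27, 0.144) or BRL-50481 replicate 2 (-0.27, 0.142), while the sign was the same each time. RefSeq also places a near-identical copy, SIK1B, at chr21:6111131-6123778, with 300 of 300 bases equal in the promoter window, and reads of SIK1 could belong to either, so that its level is uncertain.

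IER2, IER3 and CITED2 were not called. IER2 (ENSG00000160888.7, chr19:13150411-13154911, + strand), a nuclear protein that like IER5 interacts with PP2A, was measured at 2960, 3334 and 3577 normalized counts in DMSO and at 3294, 3252 and 3471 in BRL-50481. The 3 BRL-50481 libraries fell within the range of the DMSO libraries. The 95% interval of its log2 fold change ran from -0.12 to 0.17 (limma adjusted p = 0.766), and its sign turned to -0.049 without DMSO replicate 1.

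IER3 (ENSG00000137331.12, chr6:30743199-30744548, - strand), a regulator of ERK signalling and cell survival, was the most abundant of the 10. DMSO libraries held 38291, 44656 and 45917 normalized counts of it, and BRL-50481 libraries 41801, 41898 and 42046. The BRL-50481 libraries had a coefficient of variation of 0.294% against 9.52% in DMSO, and lay between DMSO replicate 1 and the other DMSO libraries. The interval of the log2 fold change ran from -0.16 to 0.10 (limma adjusted p = 0.684). This result depended on DMSO replicate 1. Without that library the value was -0.11 and passed the test (limma adjusted p = 0.00312). Without DMSO replicate 3 the value was 0.020.

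CITED2 (ENSG00000164442.11, chr6:139371807-139374648, - strand) encodes a protein that competes with HIF-1α for the coactivators CBP and p300, the same coactivators that CREB uses. It was measured at 3795, 4290 and 4221 normalized counts in DMSO and at 4224, 4036 and 3928 in BRL-50481. The ranges overlapped almost entirely. The interval of the log2 fold change ran from -0.14 to 0.11 (limma adjusted p = 0.869).

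**Figure D3:**
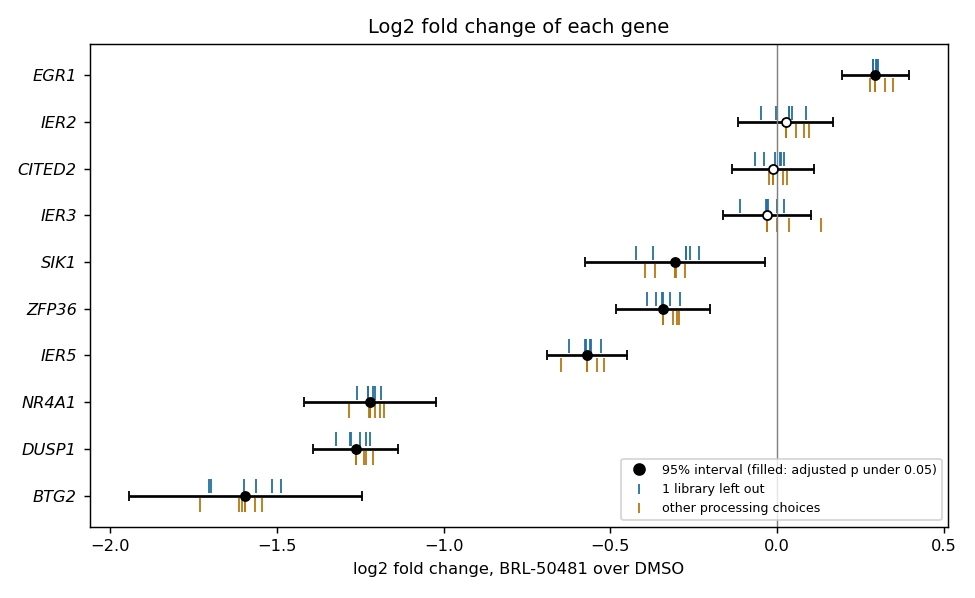
Log2 fold change of BRL-50481 over DMSO (x axis) for each of the 10 genes, with points and 95% intervals from limma (filled where adjusted p is under 0.05) and ticks for the values with 1 library left out and with other processing choices. BTG2, DUSP1 and NR4A1 lie below -1 at every tick, and IER2, IER3 and CITED2 have ticks on both sides of 0.

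Replicates varied more in DMSO than in BRL-50481 in 8 of the 10 genes, by coefficient of variation, as they did in 68.1% of all genes tested. DMSO replicate 1 was the lowest library of its group in 7 of the 10 genes, and in 41.6% of all genes tested. Without it, 7 of the 10 genes were called lower, IER3 in addition, and EGR1 was again called higher. How far that library's difference bears on the members was not tested.

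Levels of different genes were compared as normalized counts per kilobase of the annotated transcript. In DMSO, IER3 stood far above the rest at 34725 per kilobase, followed by DUSP1 at 3210. CITED2 at 1722 and IER2 at 1559 came next, with library ranges that overlapped, then IER5 at 1086 and EGR1 at 1041, which overlapped as well. ZFP36 followed at 846, and NR4A1 at 176, BTG2 at 61.9 and SIK1 at 47.6 were at the low end. IER3 was thus above 99.7% of the genes with a length, and SIK1 above 25.8%. The level of SIK1 is uncertain because of its copy SIK1B.

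With BRL-50481 the order changed around DUSP1, which was at 1335 per kilobase. CITED2 at 1706 and IER2 at 1583 then stood above DUSP1, and EGR1, at 1276, overlapped with it. BTG2, at 20.3 per kilobase, came below SIK1, at 38.3, and was the lowest. The order depends on which exons are counted. Over the union of a gene's annotated exons, the DMSO levels per kilobase were 1600 for CITED2, 1069 for IER2, 748 for ZFP36 and 59.8 for NR4A1, which puts IER2 below IER5 (1086) and NR4A1 below BTG2. With BRL-50481, IER2, at 1084 on that scale, came below both DUSP1 (1335) and EGR1 (1276), and NR4A1, at 25.6, came below SIK1, at 34.9.

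Relatives of these genes moved in both directions. Of 21 paralogs, 5 were called higher and 9 lower, against 28.9% and 29.8% of all genes. The other 7 were called in neither direction, and the median log2 fold change was -0.22. EGR3 (-1.24) fell where EGR1 rose, and EGR2 (0.37, limma adjusted p = 0.107) did not pass. EGR4 (-1.08, limma adjusted p = 0.0502) missed the threshold at a mean of 10.3 normalized counts in DMSO. It passed with no filter (0.0491), a pseudocount of 4 (-0.77, 0.0432), quantile normalization (-1.36, 0.0176) and no trend (0.00331). Next to DUSP1, the nuclear phosphatase DUSP2 fell by 2.13 on the log2 scale, from a DMSO mean of 207 to 47.5 normalized counts, and DUSP5 fell by 0.35. The ERK phosphatase DUSP6 rose by 0.56 and DUSP16, which acts on JNK, rose by 0.36, or by 0.20 with a correction for transcript length and GC content. DUSP4, also a nuclear phosphatase, rose by 0.15, and its call was lost without BRL-50481 replicate 3 (0.15, limma adjusted p = 0.0510) and with the same correction (0.039, 0.346).

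The relatives of BTG2 fell in 3 of 4 cases, BTG3 (log2 fold change -0.89), TOB1 (-0.83) and TOB2 (-0.38), while BTG1 had a log2 fold change of 0.028 (limma adjusted p = 0.612). NR4A2, the closest relative of NR4A1, had -0.16 (limma adjusted p = 0.169), and passed with quantile normalization (-0.25, 0.0473) and with the length and GC correction (-0.22, 0.0436). NR4A3 fell by 0.67 on the log2 scale from a mean of only 37.2 normalized counts, and its call was lost when any library but BRL-50481 replicate 2 was left out (-0.70 to -0.47). ZFP36L1, a second AU-rich binding protein, rose by 0.31, opposite to ZFP36, and ZFP36L2 (-0.069, limma adjusted p = 0.296) was not called but passed with the length and GC correction (-0.11, 0.0353). SIK2 fell by 0.35 and SIK3 rose by 0.30, or by 0.16 with the length and GC correction. CITED1 fell by 1.29 from a DMSO mean of 57.9 normalized counts, and CITED4 (0.56, 0.0588) and IER5L (-0.22, 0.171) were not called. IER5L passed without DMSO replicate 1 (-0.32, limma adjusted p = 0.00345) or replicate 2 (-0.34, 0.0372), and CITED4 without BRL-50481 replicate 2 (0.81, 0.0113). CITED4 also passed with median centring (0.59, limma adjusted p = 0.0468) and with the length and GC correction (0.74, 0.0153).

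**Figure D4:**
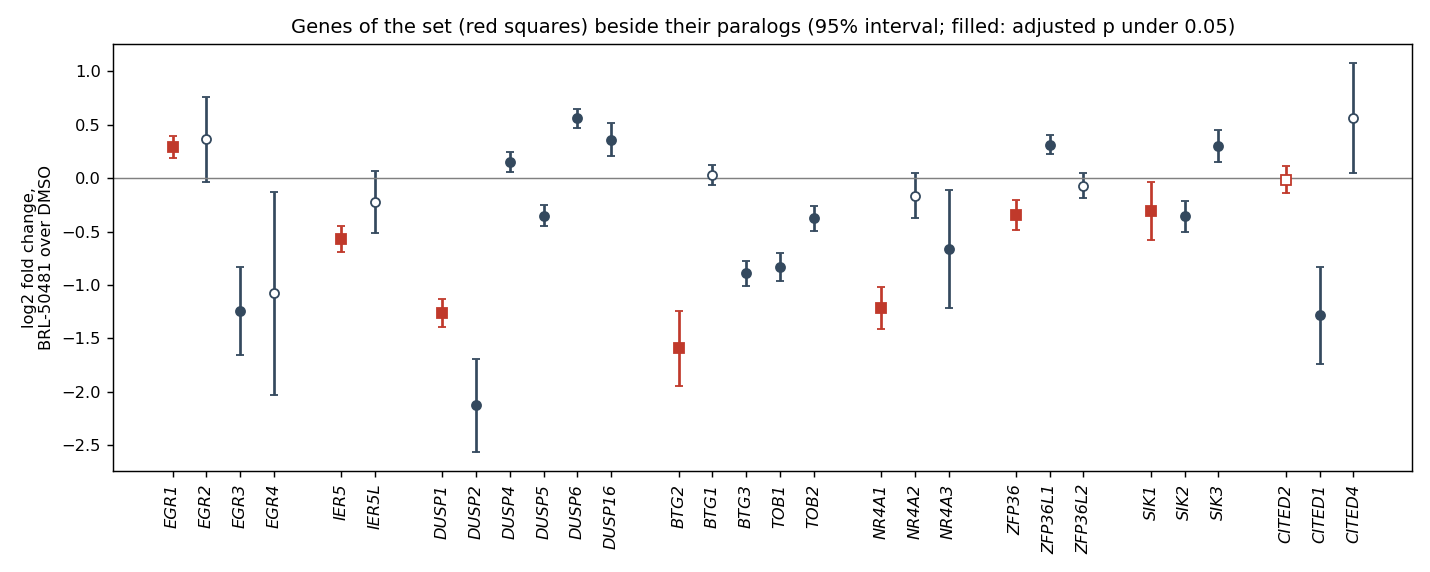
Log2 fold change of BRL-50481 over DMSO with 95% intervals for 8 of the 10 genes (red squares) and their paralogs (dark circles), filled where the limma adjusted p is under 0.05. Paralogs lie on both sides of 0, for example DUSP2 at -2.13 and DUSP6 at 0.56, or ZFP36L1 at 0.31 beside ZFP36 at -0.34.

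Among 38 other immediate-early genes, 23 were called lower and 3 higher, against 29.8% and 28.9% of all genes. Another 12 were called in neither direction, and the median log2 fold change of the list was -0.38. FOSB, a subunit of AP-1, had the largest fall, from 503, 483 and 442 normalized counts in DMSO to 67.4, 60.4 and 71.7 in BRL-50481, a log2 fold change of -2.82. FOS fell by 1.44, with 327, 348 and 361 normalized counts in DMSO and 143, 119 and 120 in BRL-50481. In both genes the groups lay far apart. HES1, a transcriptional repressor that Notch induces, fell by 1.59, and CCN1, listed under its older name CYR61 and the most abundant of these genes, fell by 0.48 from a DMSO mean of 99378 normalized counts, or by 0.25 on the log2 scale with quantile normalization.

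Of 25 other CREB-responsive genes, 20 were listed and tested, and 4 were also in the immediate-early list. Among the 20, 7 were called higher and 9 lower, against 28.9% and 29.8% of all genes, with a median of -0.12. Besides FOSB and FOS, the largest change was a rise of SCG2, which encodes a granin of secretory vesicles, from a mean of 45.6 to 126 normalized counts (log2 fold change 1.46). The genes SST, PCK1, TH, CGA and PENK were not listed. The full CRE was found in 6 of the 18 genes with a window, beside 1 of 9 of the set. These 18 were matched from all 25 genes, so genes that were not listed may be among them.

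Among 20 regulators, the factors themselves included, 8 were called higher and 5 lower, against 28.9% and 29.8% of all genes. The other 7 were called in neither direction, and the median was 0.094. CREB1 rose by 0.49 on the log2 scale, from 2381, 1845 and 2025 normalized counts in DMSO to 2897, 2937 and 2888 in BRL-50481, with no overlap. With the length and GC correction its rise was 0.26. Its relative CREM (-0.35) and the coactivator CRTC2 (-0.37) fell, while ATF1 (0.15, limma adjusted p = 0.0630), CRTC1 (-0.021, 0.831) and CRTC3 (-0.13, 0.109) were not called. Of the catalytic subunits of protein kinase A, PRKACB rose by 0.69, and the more abundant PRKACA had a log2 fold change of -0.14 (limma adjusted p = 0.0421). In the SRF arm, SRF fell by 0.74, from 5545, 5787 and 5721 to 3520, 3474 and 3202 normalized counts. Of the SRF coactivators, MRTFB, listed as MKL2, rose by 0.93 and MRTFA, listed as MKL1, fell by 0.35. ELK3 rose by 0.43, and ELK1 (-0.079, 0.236) was not called. Without DMSO replicate 1, ATF1 (0.18, limma adjusted p = 0.0106) and ELK1 (-0.12, 0.0171) passed the test. ATF1 also passed with quantile normalization (0.20, limma adjusted p = 0.0177) and median centring (0.18, 0.0293), and CRTC3 with the length and GC correction (-0.22, 0.000954). PDE7A, the target of the compound, fell by 0.45, from a mean of 406 to 298 normalized counts.

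A list of AU-rich transcripts bound by ZFP36, written from general knowledge, had 12 of 20 called higher and 5 lower, against 28.9% and 29.8% of all genes. Its median log2 fold change was 0.69. Any part of ZFP36 in these values was not tested. CXCL3 rose by 1.82 and CXCL2 by 1.60, both neutrophil chemokines, while CSF2, the growth factor GM-CSF, fell by 1.71, from a mean of 9449 to 2870 normalized counts. IER3 belongs to this list and is its most abundant gene. A mixed list of ERK feedback and output genes had 6 of 18 called higher and 6 of 18 lower, against 28.9% and 29.8% of all genes. Its median was 0.012, and its largest called changes were those of CCND1 (-0.72), LIF (0.71) and DUSP6 (0.56). PHLDA1, the most abundant, fell by 0.32, with -0.13 under quantile normalization and -0.46 under the length and GC correction.

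For context, the 16 chaperone genes that HSF1 controls were all called lower, with a median of -1.08, including HSPA8 (-2.36), HSP90AB1 (-0.43, or -0.28 with quantile normalization) and the near-identical pair HSPA1B (-2.69) and HSPA1A (-2.68), whose reads cannot be told apart with certainty. Of 15 HIF targets, 6 were called higher and 1 lower, with CA9 at 2.68, ADM at -0.81, NDRG1 at 0.61 and LDHA at -0.010 (limma adjusted p = 0.863), which turned to 0.15 and passed with quantile normalization (limma adjusted p = 0.00404). Of 15 p53 targets, 2 were called higher and 6 lower, with TIGAR at -1.10, ZMAT3 at -1.07, GADD45A at -0.91 and CDKN1A at -0.41. Over all genes tested, 28.9% were called higher and 29.8% lower. The part of the chaperone, HIF and p53 lists in the values of the 10 genes was not tested.

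**Figure D5:**
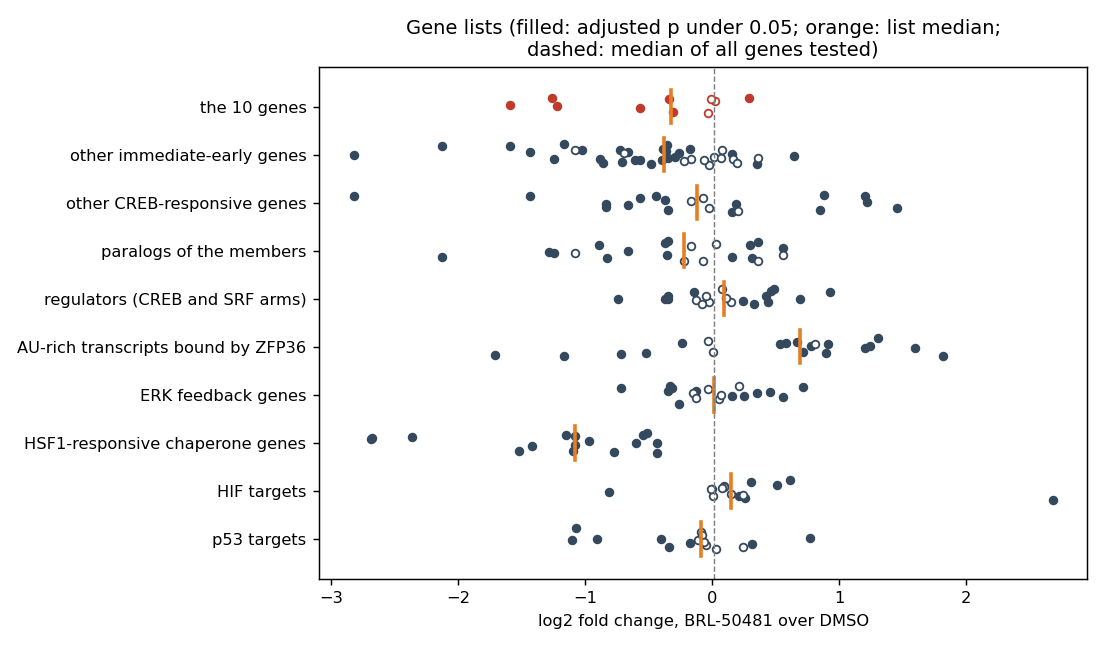
Log2 fold change of BRL-50481 over DMSO (x axis) of each gene in the set of 10 and in 9 other lists, with 1 point per gene (filled where the limma adjusted p is under 0.05), an orange bar for the list's median and a dashed line for the median of all genes. The other immediate-early genes have a median of -0.38 and the AU-rich list 0.69.

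Genes whose levels ran most like that of EGR1 were sought over the 6 libraries among 11454 genes, by Pearson's r of the log2 values. They were TNFSF15, CXCL8, CCNYL1, VCAM1 and NLRP3, each with r = 0.999. The points share 2 groups of libraries, so that this value mostly reflects a difference between the groups with little spread within them. The sizes differed, since VCAM1 rose by 2.29 on the log2 scale and CCNYL1 by 0.27.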

How the data were processed

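RNA from 6 libraries of MDA-MB-231 cells was analysed, 3 per group as given by the labels. Per the paper's methods and the submitters' processing notes, the authors aligned single-end reads to hg38 with STAR 2.7.1a, counted them per gene with HTSeq on the UCSC annotation in reverse-strand mode, and normalized them with DESeq2 1.28. The deposited signal is the gene's read count divided by the size factor of the library. The labels describe oligo-dT selection and the series record ribosomal depletion. Columns with the authors' own fold changes and p-values were not used.

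The 15246 genes that reached 4 normalized counts in 3 or more libraries were compared on log2(value + 1), and the other 405 were left out. The test was limma 3.58.1 under R 4.3.3, using lmFit and eBayes with its trend option, with Benjamini-Hochberg adjustment over all genes tested and a threshold of 0.05. Fold changes on this scale understate those of low genes. limma was used because the values are scaled and not raw counts. All values were whole multiples of 1 read (tolerance 0.05), which gave the depths quoted. No count-based test was run, because a check on recovered reads did not accept 3 of the 6 libraries. Their scaling factors were close to 1. Within both groups the replicates were further apart than counting noise allows (chi-square over degrees of freedom, 2.58 to 20.9). On simulated data, 100 of 100 genes changed by 1 on the log2 scale and 74 of 100 changed by 0.5 were found, with 8 of 15046 unchanged genes called. The simulation gave all genes the same dispersion, changed few genes and held no outlying library. Its shares therefore need not hold for the real comparison.

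Positions, lengths and untranslated regions came from GENCODE release 44 on hg38 (14216 genes matched by symbol and 890 by an older RefSeq symbol), and promoter windows from RefSeq (GRCh38.p14). In that annotation, 5 of the 10 genes overlap noncoding genes on the opposite strand. The 10 genes and all other lists were chosen with earlier results of these data known. Named are the 10 genes, their paralogs, 8 CREB and SRF regulators, PDE7A, PRKACA and MKL1 (both added after their values were seen), the 3 largest called changes at a mean of at least 50 and the most abundant gene of each list, and the 5 genes most like EGR1 at a mean of at least 100. Python 3.11.15, pandas 2.3.3 and matplotlib 3.10.9 were used. The alternatives were no filter, a mean of at least 20, pseudocounts of 0.5 and 4, quantile normalization, median centring, no trend, a length and GC correction (loess span 0.5), a replicate block, unadjusted p-values, a log2 fold change over 1 and leaving out each library.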

Additional observations from a re-analysis of the deposited data

How the results depend on the processing

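With an absolute log2 fold change over 1 required as well, 771 genes were higher and 455 lower, with 0 and 3 of the 10 genes and 8 and 20 of the other lists. With 1 library left out, 3751 to 4876 genes were higher and 4027 to 4933 lower, with 1 and 5 to 7 of the 10 genes and 40 to 50 and 62 to 71 of the other lists. Signs turned only in genes not called in the main comparison: IER2 (-0.049 to 0.088 with 1 library left out), IER3 (0.13 with quantile normalization, 0.036 with the length and GC correction, -0.11 to 0.020 with 1 library left out), CITED2 (0.030 with quantile normalization, 0.018 with median centring, -0.067 to 0.021 with 1 library left out), LDHA (0.15, which then passed with adjusted p = 0.00404, and 0.020 with the same 2 settings, -0.045 to 0.014 with 1 library left out), CRTC1 (0.0095 with median centring) and BTG1 (-0.085 with the length and GC correction). The cause was not tested. Over all alternatives the median log2 fold change of the 10 genes was -0.41 to -0.28. The medians of the other lists kept their sign except that of the ERK feedback and output genes (-0.020 to 0.11). SIK1 also lost its call with a pseudocount of 4 (adjusted p = 0.0515), no filter (0.0510), median centring (0.0708) and no trend (0.0831). The fits planned with edgeR and with DESeq2 on recovered reads were not run. Replicate numbers were shared by the groups, but same-numbered libraries had correlations of 0.121, 0.104 and 0.0514 over 12251 genes, and BRL-50481 replicate 3 correlated best with DMSO replicate 2. With the replicate block, 4440 genes were higher and 4589 lower, with 1 and 6 of the 10 genes.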
